A study of Mus musculus with 2 samples.

Results

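Ifitm1, Ifitm2 and Ifitm3 were followed in mouse iPSCs (induced pluripotent stem cells, made from body cells by reprogramming), 3 genes of the 27998 in the files. The knockout (KO) cells carried SRFΔ/Δ, a deletion of Srf on both alleles, and the wild-type (WT) cells carried SRFf/f, the floxed and undeleted alleles. Srf encodes serum response factor, a transcription factor of actin cytoskeleton and immediate early genes. Both were grown in medium with serum, so serum was common to the groups, and each genotype was 1 droplet library (10x Genomics Chromium). How many lines or clones a library held, and which part of Srf was removed, are not given in the sources used here. With 1 library per genotype there is no replicate and no test. Every difference compares these libraries. Every interval is an exact 95% interval that covers counting error only or, for shares of cells, the drawing of cells from 1 library.

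The members were chosen with their lower level in the KO library known, so their levels and ratios are a description. Cells were kept when they had at least 1000 detected genes, 1 to 10% mitochondrial counts and fewer than 5 counts summed over the fibroblast genes Col1a2, Col3a1 and Acta2. This kept 731 of 1073 KO cells and 893 of 954 WT cells. The counts are of unique molecular identifiers (UMIs), each of which marks 1 captured transcript. The kept cells held 18203451 KO and 23270714 WT UMIs, with medians of 24423 and 26656 per cell. The libraries shared 2 cell barcodes, 1 of them among kept cells. Srf had 3 UMIs in the kept KO cells and 202 in the kept WT cells. The pluripotency factor Pou5f1 stood at 711.5 CPM (UMIs of the gene among 1e+06 UMIs) in KO and 805.6 CPM in WT cells. Sox2 was at 190.8 and 200.5 CPM, so RNA of pluripotency factors was present in both libraries. Other genes of pluripotent cells differed more. Nanog (62.5 and 101.4 CPM) and Dppa5a (6777.2 and 10271.7 CPM) were lower in KO, and Zfp42 (108.0 and 78.1 CPM) was higher. Sums over a library do not give the type of each cell. The 10 genes of a primitive endoderm list, markers of an extraembryonic lineage, were all higher in the KO library, with a summed level of 404.2 CPM against 14.1 CPM in WT. A fibroblast list summed to 205.5 and 95.9 CPM, with 8 of 10 genes higher in KO and Lum at 0 in WT. Most of that sum was S100a6 (181.9 and 79.0 CPM). A macrophage list summed to 136.1 and 56.5 CPM, with 9 of 10 genes higher and Aif1 at 0 in WT. Without cells that held at least 2 UMIs of the primitive endoderm list, the macrophage sums were 13.2 and 15.4 CPM, with 4 of 10 genes higher. Most of the macrophage RNA thus lay among the cells so left out, which need not all be of 1 kind. Only 5 KO and 4 WT kept cells held 50 or more UMIs of the macrophage list. In them Ifitm3 was higher in KO, at 825.6 against 358.3 CPM (49 and 25 UMIs). Ifitm2 (252.7 and 415.6 CPM) and Ifitm1 (16.9 and 28.7 CPM) were lower. The part of fibroblast and macrophage RNA in the members' values was not tested beyond the values given without such cells. Cells with at least 2 UMIs of the primitive endoderm list are called primitive endoderm cells below, for short. The name does not give the type of each cell. The 71 KO cells with 2 to 4 such UMIs held Pou5f1 at 805.4 CPM, against 752.0 CPM in KO cells with none. Of the 24 WT cells so named, 18 had 2 to 4.

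Ifitm proteins are short proteins of the plasma membrane and of endosomes, known for restricting the entry of enveloped viruses into cells, and their genes are classical targets of interferon. In the mouse embryo Ifitm1 and Ifitm3 are also known as fragilis genes, which mark the cells from which primordial germ cells arise, and pluripotent cells carry them without added interferon. Dppa3, also called Stella, is a maternal and germ cell factor that is present in part of the cells of a naive pluripotent culture. Tfcp2l1 is a transcription factor that sustains the naive state, the pluripotent state of the embryo before implantation.

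The 3 genes lie within 55.9 kb of chromosome 7 (140954837 to 141010770, GRCm38). In GENCODE M21, Ifitm2 (ENSMUSG00000060591) is a protein-coding gene of the minus strand from 140954837 to 140955987. Ifitm1 (ENSMUSG00000025491) is on the plus strand, from 140967221 to 140969825. Ifitm3 (ENSMUSG00000025492) is on the minus strand, from 141009586 to 141010770. Their coding sequences of 318 (Ifitm1), 432 (Ifitm2) and 411 bases (Ifitm3) were 78.0% identical between Ifitm1 and Ifitm2, 80.0% between Ifitm1 and Ifitm3 and 79.9% between Ifitm2 and Ifitm3. Their transcripts shared no run of 90 identical bases. Runs of 50 bases were shared by Ifitm2 and Ifitm3 (20 runs, 3.30% of those of Ifitm2 and 3.18% of those of Ifitm3) and by Ifitm1 and Ifitm3 (15 runs). How such reads were counted is not given in the sources used here, so a small part of the counts may be uncertain between the copies. Ifitm2 also overlaps a further annotated gene of its own strand, which was not analysed here.

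Because the members were lower together, the sequence around each start site is shown, to let the promoters be compared for the interferon-stimulated response element (ISRE), through which interferon acts. Each stretch runs from 120 bases before the RefSeq start site to 30 bases after it (GRCm38.p6), 5′ to 3′ on the strand of the gene, and capitals mark each ISRE-like match, the letters GAAA followed by any 2 bases and GAAA again.
Ifitm1, chr7:140967956-140968105, plus strand: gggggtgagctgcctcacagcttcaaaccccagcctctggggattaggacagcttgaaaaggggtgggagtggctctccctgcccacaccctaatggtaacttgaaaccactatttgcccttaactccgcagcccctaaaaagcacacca
Ifitm2, chr7:140955932-140956081, minus strand: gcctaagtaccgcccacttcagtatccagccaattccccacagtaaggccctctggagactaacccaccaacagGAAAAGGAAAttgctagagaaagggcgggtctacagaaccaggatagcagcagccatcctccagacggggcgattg
Ifitm3, chr7:141010715-141010864, minus strand: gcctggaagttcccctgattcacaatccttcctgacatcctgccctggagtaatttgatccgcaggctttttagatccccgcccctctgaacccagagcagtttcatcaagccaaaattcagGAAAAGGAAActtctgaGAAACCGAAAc

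Ifitm2 and Ifitm3 share the match GAAAAGGAAA, which begins 46 bases before the start site of Ifitm2 and at base 3 after that of Ifitm3. Ifitm3 has another match, GAAACCGAAA, at base 20. Ifitm1 had no ISRE-like match in its window of 300 bases. Over all 32851 RefSeq promoter windows of 300 bases, both strands searched, 3.44% held the ISRE-like letters, and matches can overlap each other. The CArG box, the element SRF is known to bind, was found in 1.63% of the windows and in none of the 3 members' windows. These are matches of letters in short windows, and they say nothing of binding. The RefSeq table gives 1 start site for Ifitm1, while GENCODE lists transcripts that begin further upstream.

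All 3 members were lower in the KO library. Ifitm1 had 2078 UMIs in KO cells, or 114.2 CPM (109.3 to 119.2), and 7603 UMIs in WT cells, or 326.7 CPM (319.4 to 334.1). Its log2 ratio of KO over WT was -1.52 (-1.59 to -1.45), so the KO level was 34.9% of the WT level. Ifitm1 was thus the member that differed most, and the interval of its ratio lay apart from those of the other 2. Ifitm2 had 5858 UMIs (321.8 CPM) in KO and 12042 UMIs (517.5 CPM) in WT cells, a log2 ratio of -0.69 (-0.73 to -0.64). Ifitm3 had 4974 UMIs (273.2 CPM) in KO and 11007 UMIs (473.0 CPM) in WT cells, a log2 ratio of -0.79 (-0.84 to -0.74).

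The ratios of Ifitm2 and Ifitm3 were close, with Ifitm3 slightly lower. All 3 were lower by more than 1.5-fold, and 2.58% of the 6554 genes that averaged 10 CPM or more were (169 genes). Since the members were chosen for this contrast, the count supports nothing. Counted from the lowest ratio upward, Ifitm1 was gene 20, Ifitm3 gene 73 and Ifitm2 gene 111 of these 6554. In the other direction 7.05% (462 genes) were past 1.5-fold, so 73.2% of all calls were higher in KO, and 51.9% were under TMM scaling. The median ratio over all of them was 0.09, with the 10th and 90th percentiles at -0.30 and 0.50. Without the 184 KO and 24 WT cells that held at least 2 UMIs of the primitive endoderm list, the ratios were -1.33 (Ifitm1), -0.60 (Ifitm2) and -0.62 (Ifitm3). All 3 were still past 1.5-fold there, as were 2.81% of genes in that direction. With cells of a raised share of chromosome 8 counts left out too, the ratios were -1.21, -0.53 and -0.58, and Ifitm2 and Ifitm3 were no longer past it.

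The kept cells were compared with the cells that the filter removed. In 73 KO and 33 WT cells with over 10% mitochondrial counts, the ratios were -1.52 (Ifitm1), -0.75 (Ifitm2) and -1.02 (Ifitm3), each lower in KO. In 244 KO and 16 WT cells under 1%, the ratio of Ifitm1 was -1.44 (-1.77 to -1.10) and that of Ifitm3 -1.23 (-1.46 to -0.98). Ifitm2 stood apart in these cells, with 417.7 CPM in KO and 398.6 CPM in WT, a ratio of 0.06 (-0.21 to 0.36). These WT cells held only 114 UMIs of Ifitm2. Just inside the lower limit, at 1 to 1.5% mitochondrial counts, Ifitm1 was at 82.6 CPM in 29 KO cells and 177.4 CPM in 17 WT cells. Just outside it, at 0.5 to 1%, Ifitm1 was at 142.4 CPM in 47 KO cells and 219.1 CPM in 3 WT cells. Ifitm2 was higher in KO in those cells, at 423.9 against 365.2 CPM. Ifitm3 was at 299.1 CPM in the 47 KO cells and 1229.6 CPM in the 3 WT cells. These 3 cells held 101 of the 174 Ifitm3 UMIs of the 16 WT cells under 1%, so the Ifitm3 ratio of -1.23 rests largely on them. At the upper limit, just outside at 10 to 11%, Ifitm1 was at 161.1 CPM in 6 KO cells and 102.1 CPM in 4 WT cells, from 9 and 5 UMIs. Just inside, at 9 to 10%, it was at 35.7 CPM in 8 KO cells and 62.1 CPM in 6 WT cells. At the limit on fibroblast genes, kept cells held at most 2 of their UMIs in KO and 3 in WT. Cells removed for these genes held at least 7 in KO and 5 in WT.

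The cells removed for fibroblast genes were 22 of the KO library and 10 of the WT library. Srf was at 22.6 CPM (12.3 to 37.9) in those of the KO library and 17.0 CPM (3.50 to 49.6) in those of the WT library. It was at 0.165 CPM in kept KO cells and 8.68 CPM in kept WT cells. The removed cells of the KO library thus carried Srf transcript, and for them KO and WT name only the library. Ratios in these cells do not compare Srf loss with its presence. Ifitm1 had 2 UMIs in the KO cells (3.22 CPM, 0.390 to 11.6) and 5 UMIs in the WT cells (28.3 CPM, 9.19 to 66.0). Ifitm3 was at 1384.4 CPM in KO and 1307.3 CPM in WT, a ratio of 0.08 (-0.13 to 0.30). Ifitm1 was therefore nearly absent from cells in which Ifitm3 stood at several times its level in the kept cells of the same library. Ifitm2 was at 480.3 and 622.5 CPM there, a ratio of -0.38 (-0.69 to -0.05).

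**Figure D1:**
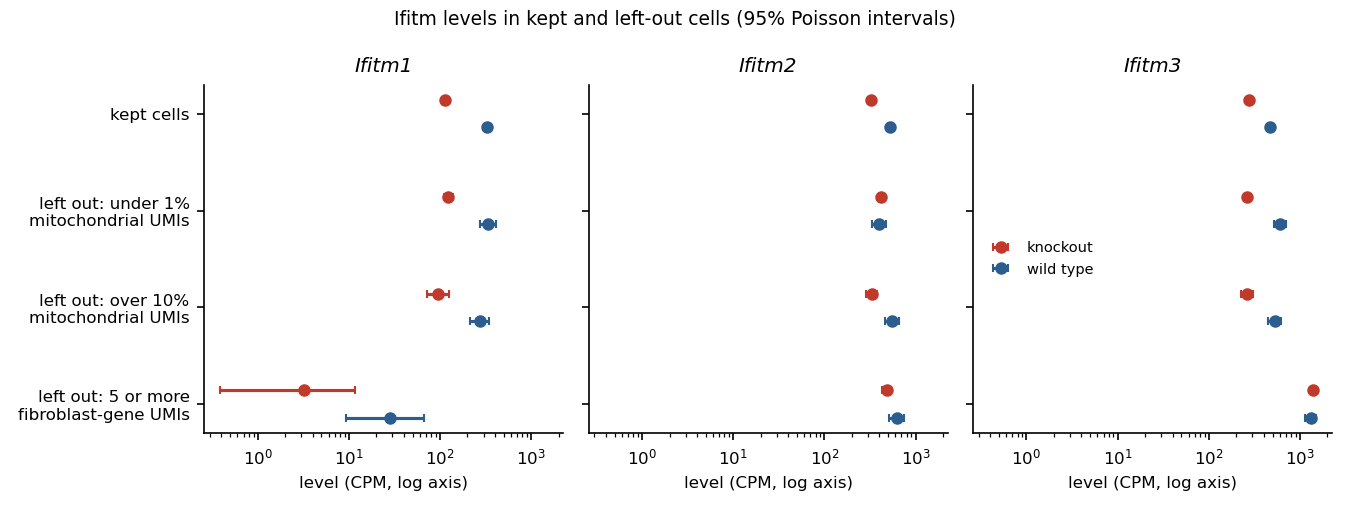
Level of each member in CPM (log axis) in the kept cells and in 3 sets of cells that the filter left out, for the KO (red) and WT (blue) libraries; points are summed counts and bars are exact Poisson intervals at 95%. In the kept cells all 3 members are lower in KO (114.2 against 326.7 CPM for Ifitm1), and in the fibroblast-gene cells Ifitm3 is at 1384.4 and 1307.3 CPM while Ifitm1 is at 3.22 and 28.3 CPM.

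How the members were spread over cells was compared at equal depth. UMIs of each kept cell were drawn at random down to 10562 (thinning). The 70 KO and 93 WT cells below that number were left out, so 661 and 800 stayed. Ifitm1 was detected in 324 of 661 KO cells (49.0%, exact binomial interval 45.1 to 52.9) and in 662 of 800 WT cells (82.8%, 79.9 to 85.3). Ifitm2 was detected in 90.2% (87.6 to 92.3) of KO and 97.9% (96.6 to 98.8) of WT cells. Ifitm3 was detected in 79.3% (76.0 to 82.3) and 95.6% (94.0 to 96.9). The intervals of the libraries were apart for each gene. Without the primitive endoderm cells those of Ifitm2 overlapped, at 95.7% (93.4 to 97.3) of 483 KO cells and 97.3% (95.9 to 98.3) of 777 WT cells. Those of Ifitm1, at 55.7% and 83.9%, and of Ifitm3, at 87.0% (83.6 to 89.8) and 96.4% (94.8 to 97.6), were still apart. These intervals take the cells of a library as separate draws, so intervals apart or overlapping are no test of genotype. Without thinning, the shares were 68.3% and 92.0% for Ifitm1, 96.2% and 98.7% for Ifitm2 and 88.5% and 97.8% for Ifitm3. Background from free RNA was read for Ifitm1 in the thinned fibroblast-gene cells, where 1 of 17 KO cells and 1 of 6 WT cells held it, at medians of 33579 and 25088.5 UMIs before thinning. These cells carry Ifitm2 and Ifitm3 themselves (at least 1 UMI of Ifitm2 in 16 of 17 and of Ifitm3 in 17 of 17 KO cells), so they give no background for those genes.

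All 3 genes together were detected in 277 of 661 KO cells (41.9%, 38.1 to 45.8) and in 623 of 800 WT cells (77.9%, 74.8 to 80.7). At least 1 of the 3 was detected in 95.9% and 99.8%. The median thinned count of Ifitm1 was 0 in KO and 2 in WT cells, and its 90th percentile was 3 and 8. For Ifitm2 the median was 3 in KO and 5 in WT cells, with 90th percentiles of 7 and 10. For Ifitm3 the median was 2 and 4, with 90th percentiles of 7 and 9. Median and upper tail of each gene thus lay lower in KO, but the single richest cell of Ifitm2 (32 UMIs, against 20 in WT) and of Ifitm3 (47, against 31) was a KO cell.

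Ifitm1 was the most unevenly spread member in WT cells. Its Fano factor, the variance over the mean of thinned counts, which is 1 for counting noise alone, was 4.15 in WT and 3.26 in KO cells. For Ifitm3 it was 2.44 in WT and 3.94 in KO cells, and for Ifitm2 1.95 and 2.13. The KO values include the single richest cells (24 UMIs of Ifitm1, 32 of Ifitm2 and 47 of Ifitm3), which add to the variance. They were not computed without these cells. A Fano factor also depends on the mean, which for Ifitm1 was 1.10 thinned UMIs in KO and 3.37 in WT cells. The order of KO against WT is therefore not read for any member. The tenth of KO cells richest in Ifitm1 held 48.9% of its thinned UMIs, against 35.4% in WT. At this depth 51.0% of the KO cells held no Ifitm1 UMI and 17.2% of the WT cells held none. Cells with 10 or more UMIs of Ifitm1 made up 0.756% of KO and 5.75% of WT cells.

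**Figure D2:**
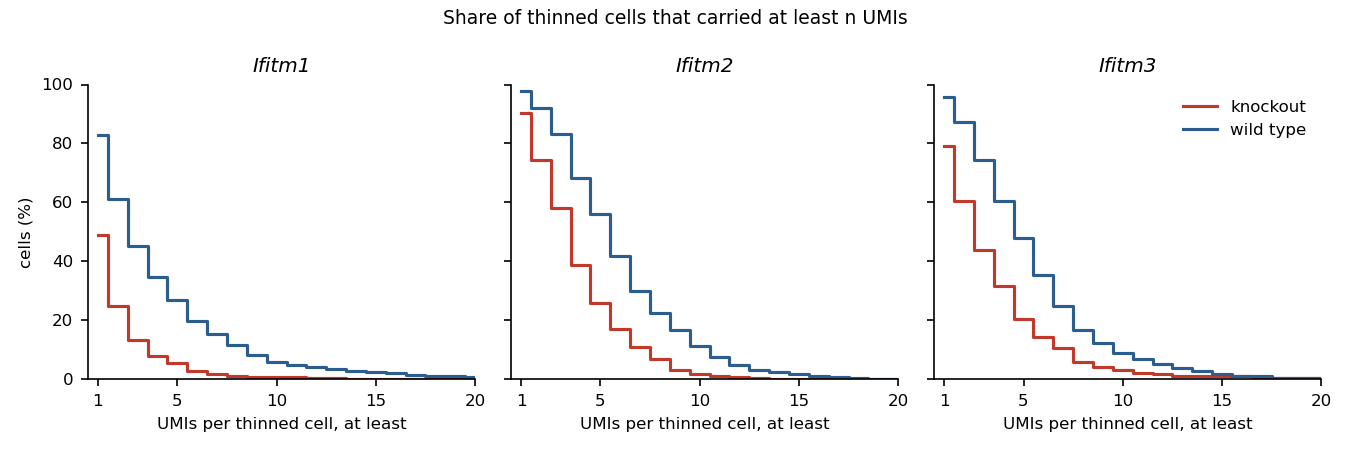
Share of thinned cells (vertical axis, percent) that carried at least the number of UMIs on the horizontal axis, for each member, in 661 KO (red) and 800 WT (blue) cells thinned to 10562 UMIs. Up to 10 UMIs the KO curve lies under the WT curve, starting at 49.0% against 82.8% for Ifitm1, 90.2% against 97.9% for Ifitm2 and 79.3% against 95.6% for Ifitm3.

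The members varied together across cells, weakly. On log2(thinned count + 1), Pearson's r between Ifitm1 and Ifitm3 was 0.38 over 661 KO cells and 0.31 over 800 WT cells. It was 0.35 and 0.28 between Ifitm2 and Ifitm3, and 0.26 and 0.31 between Ifitm1 and Ifitm2. In KO cells without Ifitm3, 137 of them, the mean of Ifitm1 was 0.401 UMIs, against 1.29 in the 524 KO cells with Ifitm3. These cells share a library and a fixed depth, and shared reads between the copies can add to such values, so they are given as descriptions. The KO values also mix kinds of cells. Of 79 thinned KO cells with 20 or more UMIs of the primitive endoderm list, 16 held Ifitm3 and 7 held Ifitm1. The values between members were not computed without such cells.

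The link to the naive genes differed between Dppa3 and Tfcp2l1. Dppa3 was itself lower in KO cells, at 32.0 CPM against 118.7 CPM (log2 ratio -1.89), and Tfcp2l1 was at 48.5 against 68.2 CPM (-0.49). In WT cells Ifitm1 had a Pearson's r of 0.43 with Dppa3 (Spearman's rho 0.41, 800 cells), and in KO cells 0.21 (0.15, 661 cells). For Ifitm3 and Dppa3 r was 0.23 in WT and 0.20 in KO, and for Ifitm2 and Dppa3 0.19 and 0.09. With Tfcp2l1 no member had an r above 0.08 or below -0.02 in either library. Without the primitive endoderm cells the r with Tfcp2l1 in KO cells was -0.08 for Ifitm1 and -0.16 for Ifitm3, so its direction was not stable. Dppa3 and Tfcp2l1 themselves had an r of 0.00 in WT and -0.04 in KO cells.

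In 442 WT cells without a Dppa3 UMI, the mean of Ifitm1 was 2.18 thinned UMIs (2.05 to 2.33). In 233 cells with 1 to 2 it was 3.70 (3.46 to 3.96), and in 125 cells with 3 or more it was 6.95 (6.50 to 7.43). In the KO library the same steps gave 0.953 (530 cells), 1.40 (111 cells) and 3.50 (20 cells). Ifitm1 was thus higher at each step of Dppa3 in both libraries, and lower in KO within each step. The log2 ratios within the steps were -1.20, -1.40 and -0.98. For Ifitm3 the WT means were 4.28, 5.35 and 6.14, the KO means 2.58, 3.93 and 4.85, and the ratios -0.73, -0.45 and -0.33. For Ifitm2 the WT means were 4.96, 5.57 and 6.71, the KO means 3.25, 3.41 and 4.85, and the ratios -0.61, -0.71 and -0.46.

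Cells without Dppa3 made up 80.2% of thinned KO cells and 55.2% of thinned WT cells. When the KO means were weighted by the WT shares of the 3 Dppa3 steps, the log2 ratio went from -1.61 to -1.19 for Ifitm1, from -0.76 to -0.55 for Ifitm3 and from -0.70 to -0.61 for Ifitm2. Weighting by Tfcp2l1 steps left them at -1.58, -0.77 and -0.70. Steps of a sparse count sort cells only roughly by Dppa3. Without the primitive endoderm cells the ratios in cells with no Dppa3 were -1.03 (Ifitm1), -0.49 (Ifitm2) and -0.54 (Ifitm3). In cells with 1 to 2 Dppa3 UMIs they were -1.21, -0.73 and -0.27, and with 3 or more -0.89, -0.41 and -0.27, so that of Ifitm3 was nearest to 0 where Dppa3 was detected.

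**Figure D3:**
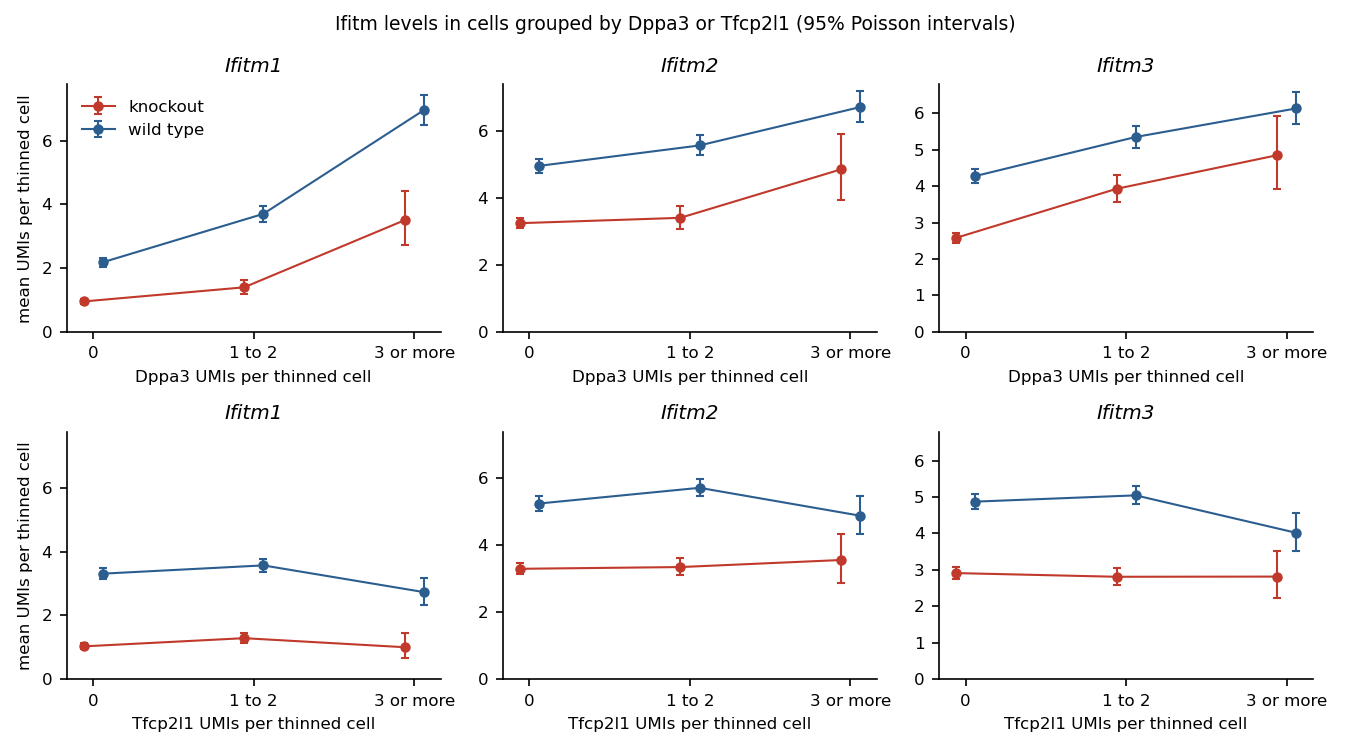
Mean thinned UMIs per cell of each member (vertical axis) in cells grouped by their thinned UMIs of Dppa3 (upper row) or Tfcp2l1 (lower row), for KO (red) and WT (blue) cells; bars are exact Poisson intervals at 95%. Ifitm1 goes from 2.18 to 6.95 UMIs with Dppa3 in WT cells and from 0.953 to 3.50 in KO cells, while no such slope is seen with Tfcp2l1.

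Because primitive endoderm genes were higher in the KO library, the members were read in KO cells by their UMIs of that list. The limits of these steps were chosen after the values had been seen. In 397 KO cells with no such UMI, Ifitm1 was at 128.1 CPM (121.0 to 135.5), Ifitm2 at 350.9 CPM and Ifitm3 at 321.9 CPM. In the 746 WT cells with none, they were at 331.0, 520.6 and 479.3 CPM, so each member was lower in KO among cells without a detected primitive endoderm transcript. In 80 KO cells with 20 or more, Ifitm1 was at 7.80 CPM (4.36 to 12.9), from 15 UMIs. Ifitm3 was at 26.0 CPM (19.3 to 34.3) in these 80 cells, and Ifitm2 at 155.9 CPM (138.8 to 174.6). Ifitm2 was thus the member kept at the largest part of its level in cells rich in these genes.

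Of 79 such cells at equal depth, Ifitm1 was detected in 7 (8.86%, 3.64 to 17.4), Ifitm3 in 16 (20.3%, 12.0 to 30.8) and Ifitm2 in 46 (58.2%, 46.6 to 69.2). The share for Ifitm1 was near that in the fibroblast-gene cells of the same library (1 of 17), which are too few to set a background share. Whether these Ifitm1 UMIs were background was not tested. Dppa3 was at 13.5 CPM, Tfcp2l1 at 16.6 CPM and Pou5f1 at 413.7 CPM in the 80 KO cells with 20 or more primitive endoderm UMIs. The WT library held 1 cell of this kind, which carried 2 UMIs of Ifitm2 and none of the other members.

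**Figure D4:**
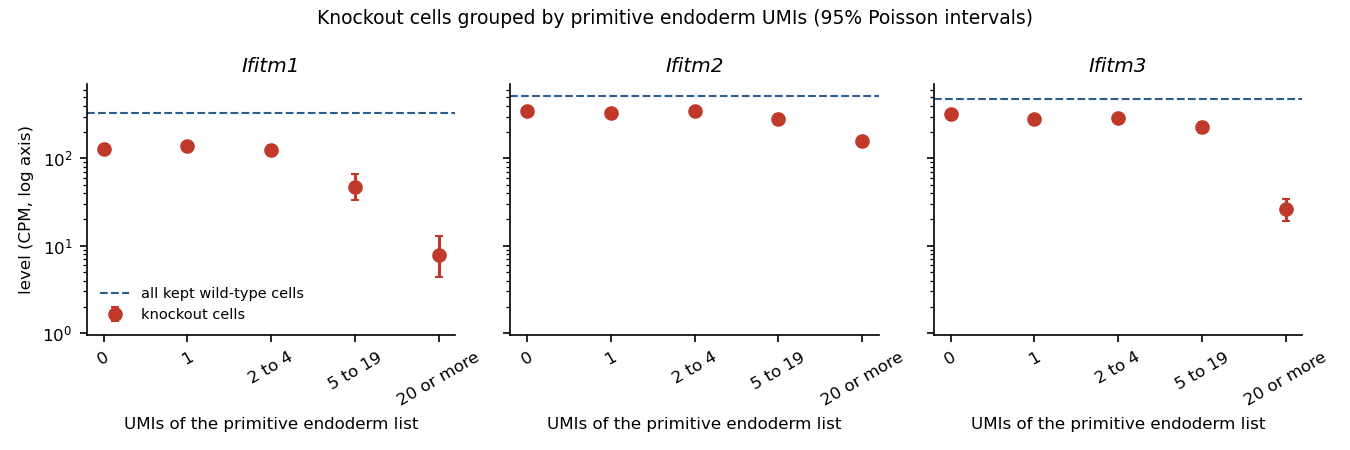
Level of each member in CPM (log axis) in KO cells grouped by their UMIs of the primitive endoderm list (397, 150, 71, 33 and 80 cells from left to right), with exact Poisson intervals at 95%; the dashed line is the level in all kept WT cells. Every group of KO cells lies under the line, and in cells with 20 or more of these UMIs Ifitm1 is at 7.80, Ifitm3 at 26.0 and Ifitm2 at 155.9 CPM.

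Other differences between the cells were set beside the members. Cells with a raised share of chromosome 8 counts (over 1.2 times the WT median) made up 369 of the kept KO and 88 of the kept WT cells. Within the WT library Ifitm1 was at 203.2 CPM in these cells and 340.4 CPM in the other 805. In cells with the usual share the ratios were -1.40 (Ifitm1), -0.62 (Ifitm2) and -0.72 (Ifitm3). In cells with the raised share they were -1.02, -0.50 and -0.64, so Ifitm2 was not past 1.5-fold there. By depth, Ifitm1 had ratios of -1.70 in cells of up to 21350 UMIs, -1.73 in the middle group and -1.27 above 29578 UMIs. Ifitm2 had -0.53, -0.84 and -0.62, and Ifitm3 -0.73, -0.85 and -0.74, so each member was lower in KO at each depth.

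The rest of the family was nearly silent. Ifitm5, known from bone, had 9 UMIs in KO and 11 in WT cells, Ifitm6 had 4 and 3, and Ifitm7 had 14 and 27. Ifitm10 had none, which allows up to 3 counts in each library. Of 13 listed neighbours of the cluster on chromosome 7, 8 had at least 10 CPM, and none was past 1.5-fold in either direction, where 2.58% of all genes were lower and 7.05% higher. Their median ratio was 0.07, near the 0.09 of all genes. The lowest was Sirt3, a mitochondrial deacetylase 72.5 kb from the members whose start overlaps that of Psmd13 on the opposite strand (-0.47). The highest was Bet1l, a vesicle transport protein 97.3 kb away (0.39).

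Interferon genes were compared next, from lists of the pathway. Of 21 genes of interferon receptors, kinases and transcription factors, 5 had at least 10 CPM. Among these, 0 were lower and 1 higher past 1.5-fold, against 2.58% lower and 7.05% higher over all genes, and their median ratio was 0.44. The higher gene was Ddx58, which encodes the RNA sensor RIG-I, at 18.8 CPM in KO and 12.2 CPM in WT (0.62). Of 31 interferon-stimulated genes other than the Ifitm genes, 7 had at least 10 CPM, with 0 lower and 1 higher past 1.5-fold and a median ratio of 0.14. The higher gene was Ly6e, a membrane-anchored protein that also acts on virus entry, at 75.1 CPM in KO and 44.0 CPM in WT (0.77). Without the primitive endoderm cells Ly6e was still higher past 1.5-fold (0.63), and B2m, the light chain of class I molecules, was lower past it (-0.66), as were 2.81% of all genes. Bst2, the virus tether tetherin, was at 113.9 and 113.1 CPM (0.01, -0.07 to 0.09).

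The other 24 interferon-stimulated genes were under 10 CPM, and 8 of them had 5 or fewer UMIs in each library. Among these 24, the counting interval of the ratio lay below 0 for 5 genes and above 0 for 2, which are named here after their values were seen. The share of all genes under 10 CPM with such intervals was not computed. The counts for this list and for the signalling genes below are therefore only descriptions. Psmb8, an immunoproteasome subunit, had 9 UMIs in KO and 87 in WT cells, a ratio of -2.85 (-4.10 to -1.93). Isg15, a ubiquitin-like protein, had 4 and 30, a ratio of -2.41 (-4.52 to -1.05). Gbp2, a guanylate-binding protein, had 3 and 24, a ratio of -2.45 (-5.02 to -0.93). Some low interferon genes thus lay on the side of the members. The nucleic acid sensor Zbp1 had a ratio of -1.86 (-3.24 to -0.81) and Psmb9, another immunoproteasome subunit, -0.85 (-1.52 to -0.24). On the other side were the antiviral gene Rsad2 with 1.55 (0.34 to 3.0) and Xaf1 with 0.34 (0.02 to 0.66). Of the 16 signalling genes under 10 CPM, the interval lay below 0 for the transcription factor Irf1, at -0.83 (-1.28 to -0.40). It lay above 0 for the receptor chain Ifnar1 (0.60, 0.25 to 0.95) and the inhibitor Socs1 (0.40, 0.09 to 0.72).

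Genes of endosomes, lysosomes and tetraspanins were read next, in a list that also held Zmpste24 and Vapa, which are not of these groups. Of its 10 genes, 0 were lower and 3 higher past 1.5-fold, against 2.58% and 7.05% of all genes. These were Lamp1 (0.61), Vamp8 (0.68) and Zmpste24, a protease reported as a partner of Ifitm proteins (0.80). Without the primitive endoderm cells none of the 9 genes that still averaged 10 CPM was past 1.5-fold (4.58% of all genes were higher past it). Zmpste24 then averaged less, with a ratio of 0.64, and the list's median went from 0.16 to -0.10.

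Naive-state and germ cell genes of at least 10 CPM that were past 1.5-fold were all lower in KO. Among those under 10 CPM, Spic (0.95) and Dazl (0.84) were higher past it and Prdm14 (-0.66) was lower. Of 15 naive-state genes of at least 10 CPM, 4 were lower and 0 higher past 1.5-fold, against 2.58% and 7.05% of all genes, with a median ratio of -0.16. These 4 were Dppa3, Nanog (-0.70), Tcl1 (-0.62), a cofactor of the kinase Akt, and Dppa5a (-0.60), an RNA-binding protein. Without the primitive endoderm cells 2 of 15 were lower past 1.5-fold, Dppa3 (-1.69) and Tcl1 (-0.65), as were 2.81% of all genes. Zfp42, the naive marker Rex1, was at the other end of the list (0.47). Of 4 germ cell genes of at least 10 CPM, Dppa3 and the transcription factor Tfap2c (-0.89) were lower past 1.5-fold. Of 7 primed-state genes of at least 10 CPM, 2 were lower, Krt18 (-1.05) and Lef1 (-0.85), and 1 was higher, the DNA methyltransferase Dnmt3a (1.13). Of those under 10 CPM, Fgf5 (2.17, 1.48 to 2.96) and Otx2 (0.75, 0.45 to 1.05) were higher past 1.5-fold. Zic2 (-0.99, -1.56 to -0.46) and T (-1.40, -2.63 to -0.41) were lower. Without the primitive endoderm cells Fgf5 had 3 UMIs in KO and 17 in WT cells (-1.57), and Otx2 had a ratio of 0.49.

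**Figure D5:**
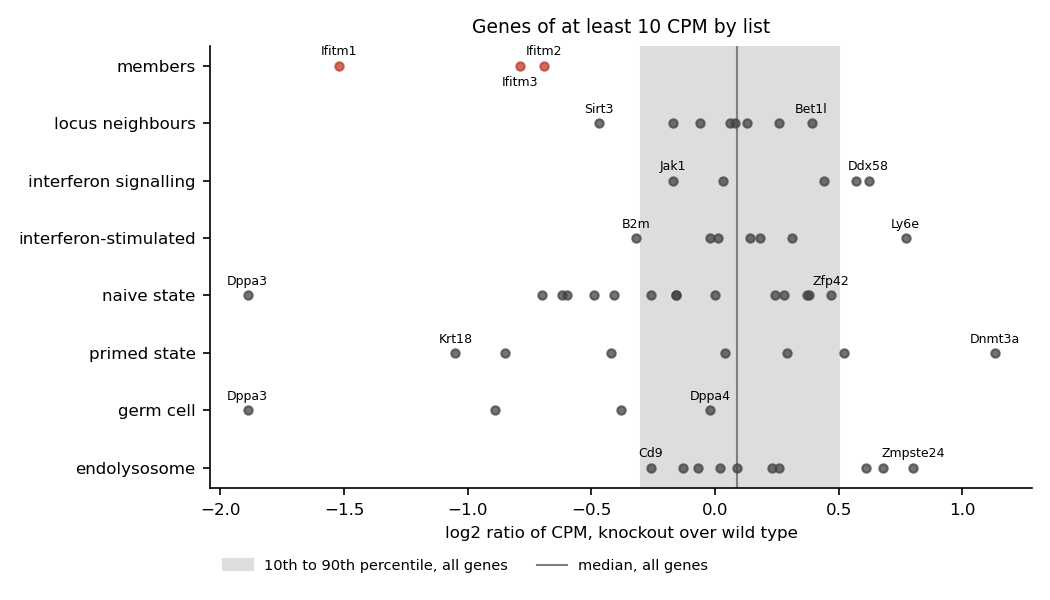
Log2 ratio of KO over WT (horizontal axis) for the genes of at least 10 CPM in each list, with the members in red; each point is 1 gene, the lowest and highest gene of a list are named, and the grey band spans the 10th to 90th percentile of all genes (-0.30 to 0.50). The members lie at -1.52, -0.79 and -0.69, left of the band, while the 8 neighbours lie between -0.47 and 0.39 and the 7 interferon-stimulated genes between -0.32 and 0.77.

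The genes whose counts ran most alike with a member were named from the 2203 genes that averaged 0.5 thinned UMIs or more in each library, by the mean of Pearson's r over the libraries. Dppa3 was too low in KO cells to enter. For Ifitm1 these were Gpx4, a glutathione peroxidase (0.28), Dppa5a (0.25), the spermine synthase Sms (0.24), the maternal gene Ooep (0.24) and the chaperone Hsp90aa1 (0.23). For Ifitm2 they were Ppia (0.31), Dppa5a (0.29), Hsp90aa1 (0.28), Prdx1 (0.27) and Ptma (0.25). For Ifitm3 they were Ppia (0.28), Ptma (0.26), Hsp90aa1 (0.23), Prdx1 (0.21) and Ooep (0.20). Hsp90aa1 was on all 3 lists. Ooep was lower in the KO library (-1.24), as was Gpx4 (-0.99).

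At the other end, Serpinh1, the collagen chaperone, was among the 5 lowest for each member, with an r of -0.40 with Ifitm3 in KO cells and -0.01 in WT cells. It was higher in the KO library (2.18). For Ifitm1 the others were Calr (-0.20), Tcf15 (-0.20), Lamp1 (-0.14) and Itm2b (-0.13). Tcf15, a factor of cells that leave the naive state, was the lowest of these in WT cells, at -0.31 with Ifitm1, and had -0.09 in KO cells. For Ifitm2 the others were Ddx3x, Ctsl, Klf6 and Cltc, and for Ifitm3 Slc2a3, Cltc, P4hb and Glul, each with a mean r between -0.19 and -0.16. For Ifitm2 and Ifitm3, every gene at this end had an r further from 0 in KO than in WT cells. The KO library held most of the primitive endoderm cells, and these correlations were not computed without them. Correlations this weak in sparse counts are descriptions of these cells.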

How the data were processed

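Per the labels' protocols, cells were captured on the 10x Genomics Chromium platform and sequenced on an Illumina NovaSeq 6000. The submitters' processing notes name Cell Ranger 2.0.0, Seurat 3.1.1 and mm10, with no role. The deposited values are whole-number UMI counts per gene and cell, not normalised, per the file headers. The annotation and the calling of cells are not given in the sources used here. Members and gene lists were chosen with earlier results of these data known.

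Counts of kept cells were summed per library, scaled to CPM, and compared as a log2 ratio with 0.5 counts added to each sum. Intervals at 95% are exact (Poisson for levels, conditional binomial for ratios, Clopper-Pearson for shares). They cover counting error only or, for shares, the drawing of cells from 1 library. Depth was 4633 to 67619 UMIs per kept KO cell and 4636 to 65395 per kept wild-type cell. Shares, Fano factors and correlations used cells thinned without replacement to the 10th percentile of totals. Genes of at least 10 CPM past 1.5-fold in a fixed list were named, with the 5 genes most and least correlated with each member. Doublets were kept, and Scrublet in scanpy 1.11.5 (assumed rate 0.8% per 1000 cells) called 0 knockout and 2 wild-type kept cells, so some doublets may remain. Positions come from GENCODE M21 (GRCm38), which matched 98.7% of identifiers, and promoters from RefSeq, which held all 3 members. Ratios and thinning were tested on simulated data. Python 3.11.15, numpy 2.4.6, scipy 1.17.1 and edgeR 4.0.16 (scaling factors only) were used.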

Additional observations from a re-analysis of the deposited data

How the results depend on the processing

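No paired analysis was possible because both groups are a single library. Each alternative changed 1 choice, except where a pair is named. A value counts as moved here when a ratio left its counting interval, a share moved by more than the root of the summed squares of both half-widths, a correlation by over 0.1, a percentage by over 1.5 times, or a Fano factor by over 1.2 times. Each member was lower in KO under all 15 alternatives, although 22 of 45 ratios moved. TMM scaling moved the median of all genes from 0.09 to -0.02 and gave -1.62 (Ifitm1), -0.79 (Ifitm2) and -0.90 (Ifitm3). Median-of-ratios size factors put that median at -0.03 and gave -1.64, -0.81 and -0.91. Under these scalings 278 and 290 genes were lower past 1.5-fold, against 169, and 300 and 290 were higher, against 462. Without primitive endoderm cells the ratios were -1.33, -0.60 and -0.62, without cells of a raised chromosome 8 share -1.40, -0.62 and -0.72. Chosen after seeing the data, leaving out primitive endoderm and macrophage-marker cells gave -1.31, -0.60 and -0.62. Leaving out primitive endoderm and raised chromosome 8 cells, also chosen after seeing the data, gave -1.21, -0.53 and -0.58, where Ifitm2 and Ifitm3 were no longer past 1.5-fold. Ifitm2 also moved with no lower mitochondrial limit (-0.62), at least 3000 genes (-0.73) and each cell weighted alike (-0.63). Ifitm3 moved with no limit on fibroblast genes (-0.63).

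The difference in detected cells, KO minus WT, was -33.7 percentage points for Ifitm1, -23.8 without thinning and -28.2 without primitive endoderm cells. For Ifitm2 it was -7.71, and -2.49 without thinning, -13.0 at 5000 UMIs, -17.7 for at least 2 UMIs and -1.65 without primitive endoderm cells, where the intervals of both libraries overlapped. For Ifitm3 it was -16.4, and -9.25 without thinning, -26.6 for at least 2 UMIs and -9.44 without primitive endoderm cells. The correlation of Ifitm1 with Dppa3 in WT cells was 0.55 without thinning. In KO cells that of Ifitm1 with Tfcp2l1 turned to -0.05 at 5000 UMIs and -0.08 without primitive endoderm cells, and that of Ifitm3 with Tfcp2l1 to -0.16 without them. The share of genes lower past the fold was 4.93% from 1 CPM up and 0.565% at 2-fold. The other 32 correlations and all 12 Fano factors stayed within these limits, that of Ifitm1 in KO cells narrowly (3.26, and 2.75 with another random seed). The causes were not tested.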
